A study of Mus musculus with 9 samples.

Results

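The metallothioneins Mt1, Mt3 and Mt4 and their metal-sensing transcription factor Mtf1 were measured in basal epidermal cells of wounded mouse tail skin. The members were chosen by gene symbol from a list of 5 genes, Mt1, Mt2, Mt3, Mt4 and Mtf1. The choice followed an earlier result of these arrays, the low Mt4 signal at the wound edge, so Mt4 is described with no test. Of the 5 genes, 4 had a probe set that the platform annotation ties to their symbol alone, out of 17097 such genes on the array, and those 4 genes had 6 probe sets. Mt2 was not analysed here. Mt1 and Mtf1 each had a second probe set, and the one with the higher mean over the 9 arrays stood for the gene.

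CD1 mice, whose age the labels do not give, received a 3 mm punch wound in the tail skin, and basal cells of the interfollicular epidermis (α6-integrin+, CD34-) were sorted at D4. There were 3 groups of 3 samples. Leading edge (LE) samples came from a 4 mm punch around the wound and were α5-integrin+ (ITGA5positive). Proliferative hub samples were ITGA5negative. The methods give a 6 mm punch for the hub, but the legend of the α5-integrin sort names only the 4 mm punch and control skin. Control samples came from tail skin far from the wounded area, and no α5-integrin gate is named for them, so wound region and α5-integrin gate cannot be told apart. Each sample held 300 cells, and how many mice were pooled for these samples is not stated. The labels call the samples biological replicates and the methods call them technical independent samples, so the p-values below rest on a spread between samples that may be only technical. Signals are RMA values on a log2 scale, on which a difference of 1 is a doubling, and each group has n = 3.

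Metallothioneins are small, cysteine-rich proteins that bind zinc and copper, buffer their free levels in the cell and trap toxic metals such as cadmium. Mt1 and Mt2 are made in most tissues and are induced by metals, glucocorticoids and stress. Mt3 is best known from the brain, and Mt4 from the differentiating layers of stratified squamous epithelium. MTF1 senses free zinc and binds metal response elements in the promoters of its target genes.

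The labels were set against the genes used for the sort. Itga5, the α5-integrin gene, had a signal of 9.11 ± 0.05 (SD) at the LE, 6.92 ± 0.51 in the hub and 6.40 ± 0.14 in control. Basal keratins Krt5 and Krt14 stood between 13.28 and 13.32 in group mean. Of the 6 basal keratinocyte genes listed, 2 were higher and 0 lower at the LE, against the hub and against control. Itga6, the α6-integrin gene of the gate, was higher by 0.47 against the hub (limma adjusted p = 0.00162) and by 0.69 against control (5.60e-05). Itgb4 was higher by 0.38 (0.00375) and 0.34 (0.00329). Of all genes, 10.6% and 22.8% were called in these comparisons. The 23 probe sets for nonspecific background ranged from 3.66 to 8.61 with a median of 4.66, and the highest value was at least 13.69 on every array. The hub and control means of Itga5 lay inside that background range. The range is wide, and the median of all probe sets on an array, 6.47 to 6.53, also lies inside it. A signal inside the range is therefore not shown to be absent. Arrays correlated at 0.988 to 0.995 within groups and at 0.964 to 0.986 between groups.

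In the mouse genome (GRCm38.p6) the 4 metallothionein genes lie in a row on chromosome 8, in the order Mt4 (chr8:94137204-94139031), Mt3 (chr8:94152607-94154148), Mt2 (chr8:94172618-94173567) and Mt1 (chr8:94178883-94180327). Mtf1 lies apart, at chr4:124802549-124849800. Metal response element cores were searched as TGCACNC or TGCGCNC on both strands of RefSeq promoter windows of 300 bases around a transcript start. The promoter of Mt4, the member with the lowest signal at the LE relative to the other groups, is shown as the 250 bases 5′ of its start on the + strand, with the core in capitals (it lies on the - strand).
Mt4, chr8:94136954-94137203: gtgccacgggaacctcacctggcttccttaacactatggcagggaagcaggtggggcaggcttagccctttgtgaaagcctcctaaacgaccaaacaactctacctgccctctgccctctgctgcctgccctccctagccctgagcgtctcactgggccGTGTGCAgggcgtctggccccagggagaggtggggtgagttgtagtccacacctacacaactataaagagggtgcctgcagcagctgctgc

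The window of Mt1 spans chr8:94178839-94179138 and is set on a transcript start at base 94179089, which lies inside the gene as given above, so most of the window overlaps the gene's interval. It held 3 cores, all on the + strand, shown here with 5 bases on each side, since Mt1 was the other metallothionein with a lower signal at the LE. They start 23 bases before that start and 2 and 20 bases after it. Other starts of Mt1 were not searched, so the positions and the count of 3 hold for this start alone.
Mt1 site 1: cgctgTGCACACtggcg
Mt1 site 2: agctcTGCACTCcgccc
Mt1 site 3: aaaagTGCGCTCggctc
In windows of the same length the Mt2 window held 4 cores, the Mt3 window 1, the Mt4 window 1, on the - strand, and the Mtf1 window 0. Over all 32851 RefSeq promoter windows of this length, 25.7% held at least 1 core, 7.11% at least 2, 1.97% at least 3 and 0.517% at least 4. A match of letters is a description of the window and not a measured binding site.

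Mt4, the metallothionein of stratified epithelium, was the member with the largest difference between groups. Its log2 signal was 9.03, 7.98 and 7.27 on the LE arrays, 11.33, 11.39 and 11.44 on the hub arrays and 11.64, 11.61 and 11.77 on the control arrays. All 3 LE arrays lay below all 6 others, and the 3 hub arrays lay below the 3 control arrays. The group means were 8.09 ± 0.89 (SD) at the LE, 11.38 ± 0.05 in the hub and 11.67 ± 0.09 in control. The LE mean was thus lower than the hub mean by a log2 difference of -3.29 ± 0.34 (SE, 9.78-fold) and lower than the control mean by -3.58 ± 0.34 (11.9-fold). These are folds of signal, and since LE replicates 2 and 3 lay inside the range of the background probe sets they may understate the difference and are not exact folds of transcript. With each array left out in turn, the difference from the hub ranged from -3.76 without LE replicate 1 to -2.88 without LE replicate 3, and that from control from -4.05 to -3.16.

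The hub mean of Mt4 was below the control mean by a log2 difference of -0.29 (1.22-fold). Its SE was 0.34 when the 3 groups shared 1 estimate of the spread, and 0.07 when the hub and control arrays were fitted alone. The LE arrays carried most of that spread.

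**Figure D1:**
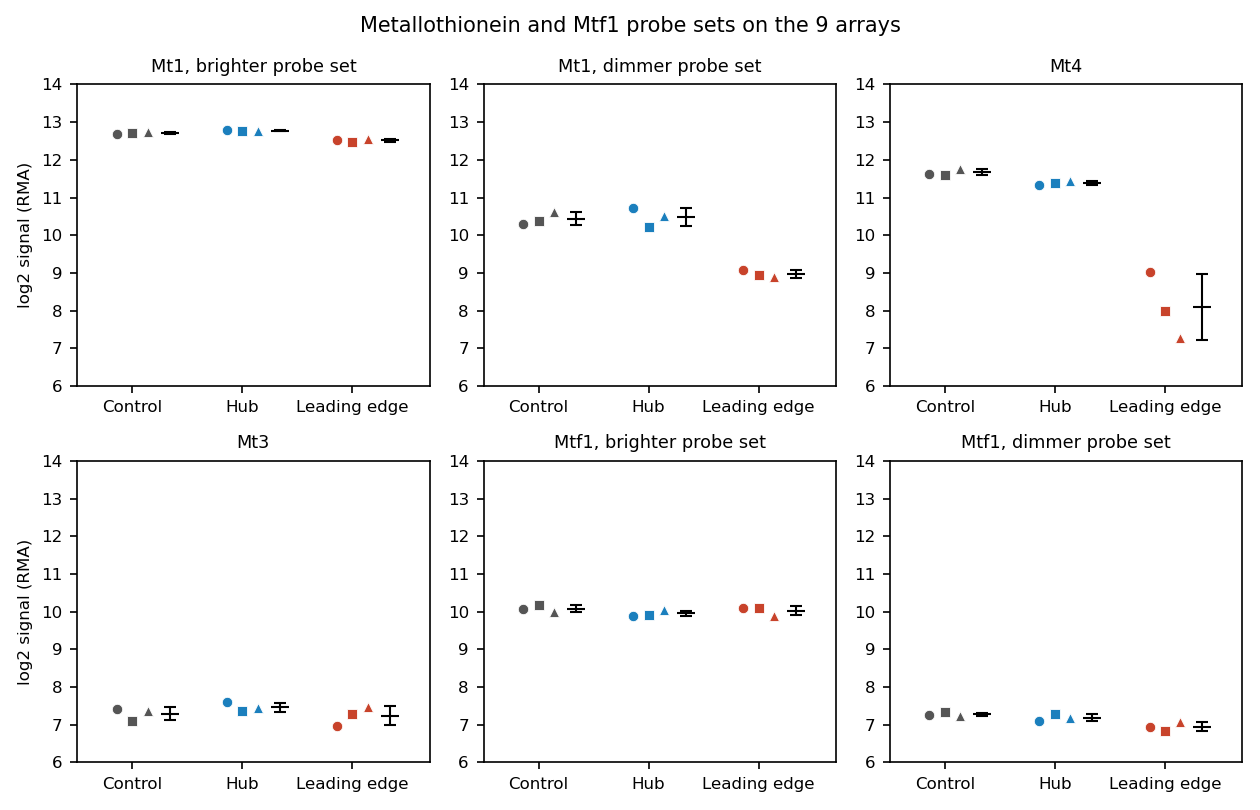
Log2 signal of the 6 probe sets of Mt1, Mt3, Mt4 and Mtf1 on each of the 9 arrays, by group. Circles, squares and triangles are replicates 1, 2 and 3, and the black bar is the mean ± SD. The LE arrays of Mt4 sit between 7.27 and 9.03 and all other arrays of Mt4 between 11.33 and 11.77.

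Mt4 was set beside the keratins of differentiating epidermis and of tail scales. Krt1 and Krt10, the keratin pair of suprabasal cells, were lower at the LE than in the hub by log2 differences of -1.73 ± 0.32 (limma adjusted p = 0.00724) and -1.47 ± 0.22 (adjusted p = 0.00280). Dsg1a, a desmosomal cadherin of the upper layers, was lower by -1.79 ± 0.14 (adjusted p = 5.70e-05). Of the 7 suprabasal genes listed, 3 were lower and 0 higher at the LE than in the hub, beside 10.6% of all genes called. Ivl, Lor, Flg and Sbsn did not pass. The mean signal over the 7 genes was 8.60 to 8.97 on the LE arrays, 9.46 to 9.55 on the hub arrays and 9.38 to 9.61 on the control arrays. Lor and Flg, which define the granular layer, stayed at or below 6.29 on all 9 arrays, inside the range of the background probe sets. Against control, where 22.8% of all genes were called, the same 3 genes fell. Ivl, a cornified envelope precursor, rose by 0.57 ± 0.14 (adjusted p = 0.0161). That call was lost without LE replicates 2 or 3 or control replicates 1 or 3, with an adjusted p of up to 0.0655.

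Krt2, Krt36 and Krt84, keratins of the tail scale, were all lower at the LE than in the hub, by -5.72 ± 0.27, -4.51 ± 0.21 and -3.88 ± 0.18 (limma adjusted p = 9.66e-06 each). The lists were chosen with earlier results of these data known, so these p-values are a description and no independent test. On the LE arrays all 3 read at most 7.83, inside the range of the background probe sets, so the sizes are those of the signal and not exact. They split the arrays as Mt4 did, with a list mean of 6.90 to 7.16 on the LE arrays and 11.59 to 12.04 on the others. Between hub and control 0 of these 10 keratinocyte genes passed, beside 7.28% of all genes called, so few calls would be looked for among 10 genes. The part of differentiating or scale cells in the Mt4 difference was not tested, and in sorted bulk samples fewer cells that make a transcript and less transcript per cell cannot be told apart.

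**Figure D2:**
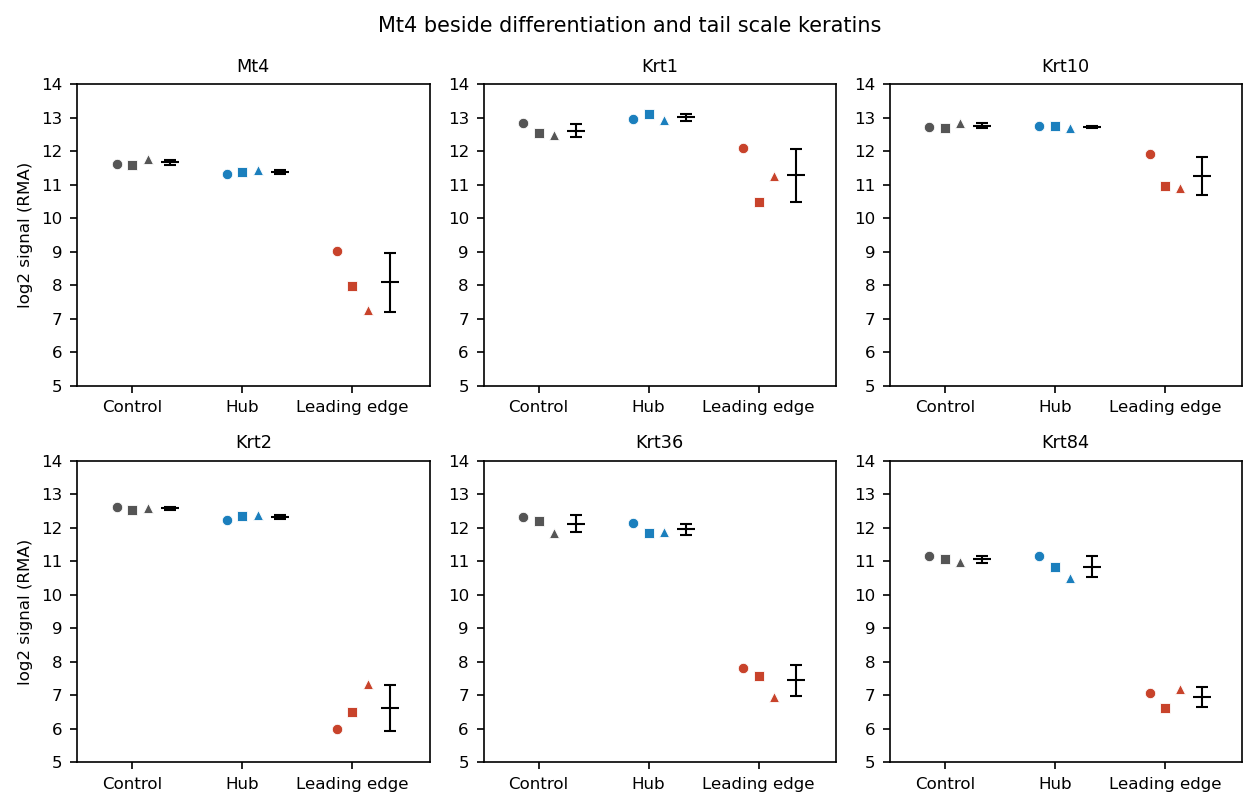
Log2 signal of Mt4 and of 5 keratins on each array, by group, with the mean ± SD in black. Krt1 and Krt10 mark suprabasal cells, and Krt2, Krt36 and Krt84 tail scale cells. The LE arrays lie lowest in every panel, by a smaller distance for Krt1 and Krt10 than for the scale keratins.

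Mt1, the ubiquitous inducible form, was lower at the LE on both of its probe sets, by very different amounts. The main probe set read 12.54, 12.47 and 12.55 on the LE arrays, 12.79, 12.77 and 12.77 on the hub arrays and 12.69, 12.73 and 12.75 on the control arrays. The LE arrays did not overlap with the others, and all 9 values lay near the top of the scale. The LE mean of 12.52 ± 0.04 (SD) was below the hub mean of 12.78 ± 0.01 by -0.26 ± 0.06 (SE, 1.20-fold, limma adjusted p = 0.0241) and below the control mean of 12.72 ± 0.03 by -0.20 ± 0.06 (1.15-fold, adjusted p = 0.0401). Hub and control differed by 0.06 ± 0.06 (95% interval -0.08 to 0.19, adjusted p = 0.705). The call against the hub was lost without LE replicates 2 (-0.23, adjusted p = 0.0943) or 3 (-0.27, 0.0511) and without hub replicates 1 (-0.25, 0.0804), 2 (-0.26, 0.0697) or 3 (-0.26, 0.0726), and that against control without any 1 of the 9 arrays (-0.22 to -0.18, adjusted p from 0.0600 to 0.132). The identifier of this probe set carries the suffix s_at, which Affymetrix gives to probes that can match transcripts of more than 1 gene, so signal from other metallothioneins cannot be told apart from that of Mt1.

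The second Mt1 probe set, without that suffix, read 9.09, 8.95 and 8.89 on the LE arrays, 10.71, 10.23 and 10.50 on the hub arrays and 10.29, 10.38 and 10.63 on the control arrays. Here too the LE lay below all other arrays, while hub and control overlapped. The LE mean of 8.98 ± 0.10 (SD) was below the hub mean of 10.48 ± 0.24 by -1.51 ± 0.13 (SE, 2.84-fold, limma adjusted p over all probe sets = 0.000192) and below the control mean of 10.43 ± 0.17 by -1.46 ± 0.13 (2.75-fold, adjusted p = 5.81e-05). With each array left out, these differences ranged from -1.63 to -1.39 and from -1.53 to -1.36, with adjusted p of at most 0.00128. Hub minus control was 0.05 ± 0.13 (adjusted p = 0.910). Which of the probe sets is nearer to the Mt1 transcript level was not tested.

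Mt3, the metallothionein of the brain, stayed inside the range of the background probe sets on all arrays, though above the array medians of 6.47 to 6.53. It read 6.97, 7.28 and 7.46 at the LE, 7.60, 7.36 and 7.44 in the hub and 7.42, 7.10 and 7.36 in control, and all 3 groups overlapped. The LE differed from the hub by -0.23 ± 0.13 (95% interval -0.53 to 0.07, limma adjusted p = 0.381) and from control by -0.06 ± 0.13 (-0.36 to 0.24, adjusted p = 0.822). Hub minus control was 0.17 ± 0.13 (-0.13 to 0.47, adjusted p = 0.578).

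Mtf1, the zinc sensor, read 10.10, 10.09 and 9.89 at the LE, 9.90, 9.92 and 10.04 in the hub and 10.07, 10.19 and 9.98 in control, with all groups overlapping. Its LE mean differed from the hub mean by 0.07 ± 0.09 (95% interval -0.12 to 0.27, limma adjusted p = 0.720) and from the control mean by -0.05 ± 0.09 (-0.25 to 0.14, adjusted p = 0.727). Hub minus control was -0.13 ± 0.09 (-0.32 to 0.07, adjusted p = 0.504). Its second probe set read 6.95, 6.84 and 7.07 at the LE, 7.09, 7.30 and 7.19 in the hub and 7.25, 7.33 and 7.24 in control, all inside the background range. There the LE lay below control by -0.32 ± 0.08 (adjusted p over all probe sets = 0.0233), a call lost without LE replicates 1 (adjusted p = 0.0533) or 2 (0.0797) or control replicate 2 (0.0646), and below the hub by -0.24 ± 0.08 (adjusted p = 0.123).

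Of the 3 members that were tested, 1 (Mt1) was lower and 0 higher at the LE than in the hub, where 10.6% of all genes were called in either direction. Against control the count was again 1 lower, with 22.8% of all genes called, and between hub and control it was 0, with 7.28% called. At an unadjusted p under 0.05 limma gave the same counts of 1, 1 and 0. Both wound regions were compared with the same control arrays.

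**Figure D3:**
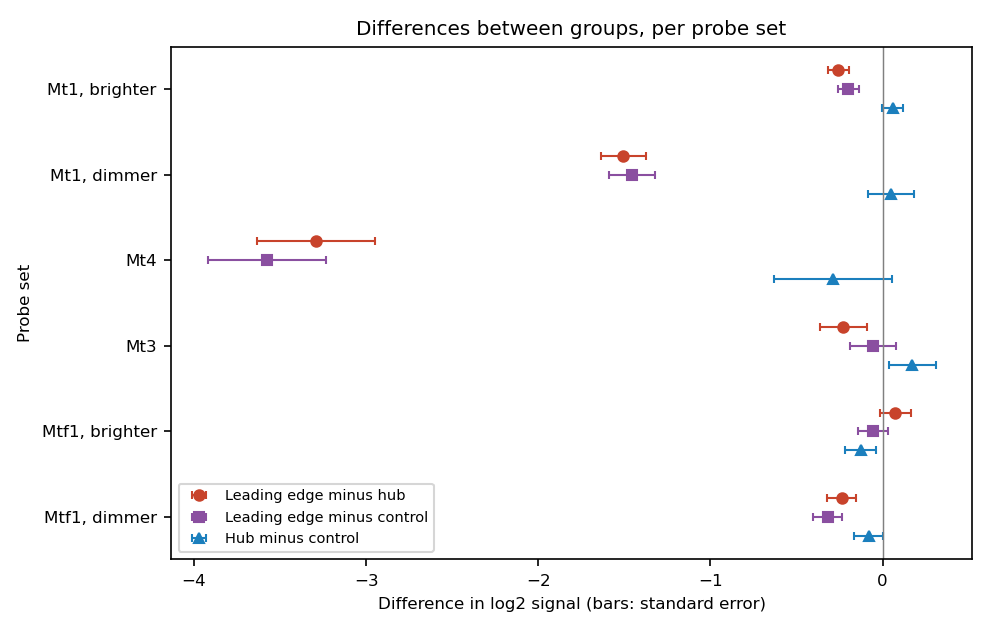
Log2 difference between groups for each member's probe sets, with SE as bars. Symbols stand for the 3 comparisons. Mt4 and the second Mt1 probe set lie furthest below 0 in both comparisons that involve the LE, and hub minus control lies between -0.29 and 0.17.

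The genes around the cluster differed in direction among themselves. Among the nearest protein-coding genes on either side, 7 were measured, and their LE minus hub differences ranged from -0.63 to 0.31. Of these, 1 was lower at the LE than in the hub and 0 higher, beside 10.6% of all genes called. It was Bbs2, a component of the ciliary BBSome next to Mt4, at -0.63 ± 0.17 (limma adjusted p = 0.0420), a call lost without LE replicates 1 or 3, any hub replicate or control replicate 2 (adjusted p from 0.0526 to 0.132). Against control, Bbs2 was lower by -0.76 ± 0.17 (adjusted p = 0.00983), and the nuclear pore gene Nup93 was higher by 0.61 ± 0.10 (adjusted p = 0.00169). Nudt21, which codes for a factor of mRNA 3′ end processing, was higher by 0.29 ± 0.08 at the LE (adjusted p = 0.0283, lost without LE replicates 1 or 2 or control replicates 1 or 3, up to 0.0867) and by 0.44 ± 0.08 in the hub (adjusted p = 0.0103). Ogfod1, Slc12a3, Herpud1 and Nlrc5 passed in no comparison.

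**Figure D4:**
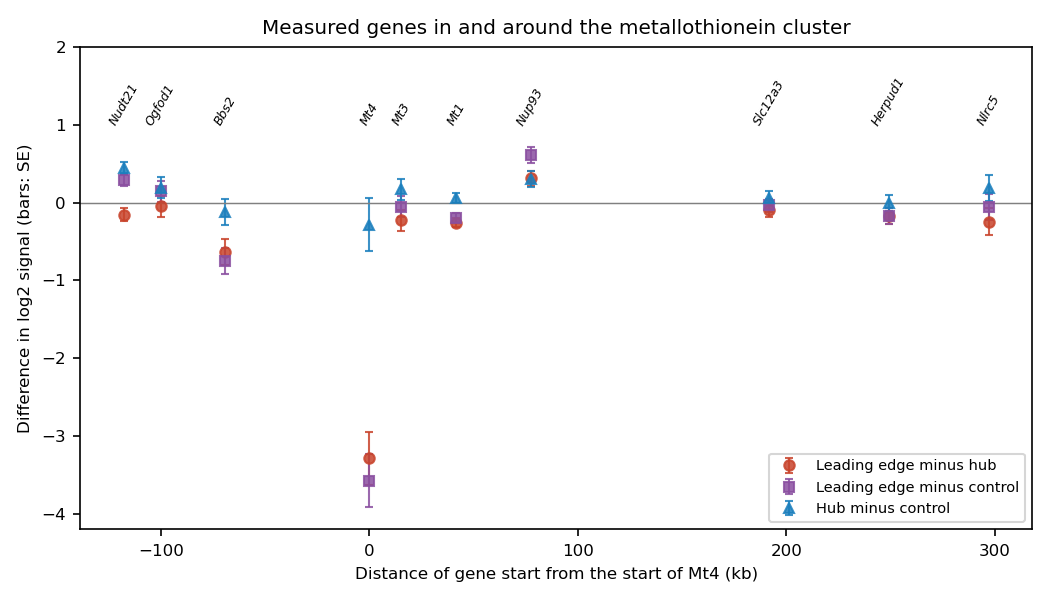
Log2 difference of the measured genes of the metallothionein cluster and its neighbours by distance from the start of Mt4 in kb, with SE as bars and symbols for the 3 comparisons. Mt4 stands furthest from 0, and the neighbours lie between -0.76 and 0.61.

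Over the 9 arrays, the genes whose signal followed Mt4 most closely were Dcaf8 (Pearson r = 0.996), Parp10 (r = 0.994), Eef1b2 (r = 0.991), Rps9 (r = 0.988) and Rpl34-ps1 (r = 0.988). Parp10, an ADP-ribosyltransferase, had the widest range of the 5, at 8.69, 8.21 and 7.88 on the LE arrays against means of 10.47 in the hub and 10.85 in control. Eef1b2 and Rps9, of the translation machinery, had far smaller LE minus hub differences, of -0.23 and -0.32. For the main probe set of Mt1 they were Ly6c1 (r = 0.995), Rrp7a (r = 0.970), 2310039H08Rik (r = 0.969), Lrrc1 (r = 0.969) and Rnaset2a (r = 0.967). These are descriptions over 9 points that share arrays and groups.

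The lists that follow are described by counts alone, beside the 10.6% of all genes called for LE against hub, 22.8% for LE against control and 7.28% for hub against control. Zinc transporters were called in both directions. Slc30a1, the plasma membrane zinc exporter and a well-known MTF1 target, had signals of 9.06 ± 0.03 (SD) at the LE, 9.40 ± 0.17 in the hub and 9.30 ± 0.25 in control, and LE minus hub was -0.34 ± 0.13 (limma adjusted p = 0.138). Of the 10 exporters of the SLC30 family, 1 was higher and 1 lower at the LE than in the hub, with a median difference of -0.05 beside -0.01 for all genes. Slc30a2, which loads zinc into vesicles, fell by 0.98 ± 0.19 (adjusted p = 0.0106), and by 0.69 against control (adjusted p = 0.0284, lost without LE replicates 1 or 3 or control replicates 1 or 2, up to 0.0849). Slc30a7, a Golgi transporter, rose by 0.57 ± 0.12 (adjusted p = 0.0128, lost without LE replicate 2 or hub replicates 1 or 2, up to 0.0513) and by 1.29 ± 0.12 against control (adjusted p = 4.51e-05), and was called on 1 of its 2 probe sets.

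Of the 14 importers of the SLC39 family, 2 were higher and 3 lower at the LE than in the hub, and 4 higher and 2 lower than in control, with medians of -0.01 and 0.05. Slc39a8 read 7.58, 7.40 and 7.65 on the LE arrays and means of 8.63 in the hub and 8.98 in control, which was lower by -1.09 ± 0.21 (limma adjusted p = 0.00865) and -1.44 ± 0.21 (adjusted p = 0.000800), each called on 1 of its 2 probe sets. Its LE signals lay inside the range of the background probe sets, so these sizes are not exact. Slc39a10, a listed MTF1 target, was lower by -0.49 ± 0.09 (adjusted p = 0.00959) and Slc39a9 by -0.59 ± 0.10 (adjusted p = 0.00434), the latter on 2 of 3 probe sets. Slc39a14, an importer of zinc and of non-transferrin-bound iron, was higher than in control by 1.24 ± 0.15 at the LE (adjusted p = 0.000344, on 3 of 3 probe sets) and by 1.07 ± 0.15 in the hub (adjusted p = 0.00362, on 1 of 3). Slc39a2 was higher by 1.12 ± 0.26 against control (adjusted p = 0.0122) and by 0.94 ± 0.26 against the hub (adjusted p = 0.0498), and the second call was lost without LE replicates 1 or 2, any hub replicate or control replicate 1, with an adjusted p of up to 0.134. Slc39a7, which releases zinc from the endoplasmic reticulum, was higher than in control by 0.62 ± 0.11 (adjusted p = 0.00274). Between hub and control, Slc30a7 was higher in the hub by 0.72 ± 0.12 (adjusted p = 0.00616), on 1 of 2 probe sets. Slc39a9 was higher by 0.50 ± 0.10 (adjusted p = 0.0154, lost without hub replicates 2 or 3, up to 0.0608). It was called on 1 of 3 probe sets, with a lowest difference of -0.15.

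Of the 15 measured copper-handling genes, 1 was higher and 1 lower at the LE than in the hub, and 3 higher and 4 lower than in control, which for the hub is a share near that of all genes. The metalloreductase Steap2 was higher by 1.09 ± 0.20 against the hub (limma adjusted p = 0.00679), on 1 of its 4 probe sets. Against control it was higher by 1.80 ± 0.20 (adjusted p = 0.000156), on 2 of 4, with a lowest difference of -0.03. Its paralog Steap3 was higher than in control by 1.57 ± 0.31 (adjusted p = 0.00472). Steap4, of the same family, was lower by -0.85 ± 0.17 against control (adjusted p = 0.00517) and by -0.76 ± 0.17 against the hub (adjusted p = 0.0180, lost without LE replicates 1 or 3 or hub replicate 2, up to 0.0693). Ccs, the chaperone that loads copper onto superoxide dismutase, was lower than in control by -0.70 ± 0.15 (adjusted p = 0.00690). Atp7a, a copper exporting ATPase, was the only one of the 15 that passed between hub and control, at -0.54 ± 0.13 (adjusted p = 0.0393), on 1 of its 2 probe sets, and that call was lost without 7 of the 9 arrays (all but control replicates 1 and 3), with an adjusted p of up to 0.142.

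Known MTF1 targets other than the metallothioneins were called in both directions. The list does not separate targets that MTF1 raises from targets that it lowers, so counts by direction are no measure of MTF1 activity. Of 9 measured, 3 were higher and 2 lower at the LE than in the hub, with a median of 0.10, and 4 were higher and 3 lower than in control, with a median of -0.20. Among those higher than in control was Gclc, at 0.43 ± 0.13 (limma adjusted p = 0.0397), a call lost without 6 of the 9 arrays, up to 0.124. Ndrg1, which is also induced by hypoxia, read 12.09, 12.24 and 12.17 on the LE arrays against means of 10.66 in the hub and 10.82 in control. It was higher by 1.51 ± 0.07 (limma adjusted p = 9.66e-06) and 1.35 ± 0.07 (adjusted p = 1.41e-06). Pgf, a growth factor of the VEGF family, was higher by 1.19 ± 0.20 against the hub (adjusted p = 0.00433), and Cited1, a transcriptional coregulator, by 0.56 ± 0.10 (adjusted p = 0.00776). The genes lower at the LE than in the hub were the zinc transporters Slc30a2 and Slc39a10. Against control, both were lower at the LE, and so was Csrp1, a LIM domain protein, by -0.33 ± 0.07 (adjusted p = 0.00792). Csrp1 was also lower in the hub than in control, by -0.43 ± 0.07 (adjusted p = 0.00667), the only one of the list to pass there.

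Of 12 measured genes that glucocorticoids induce in many cell types, 7 were lower and 1 higher at the LE than in control, with a median of -0.49 beside 0.02 for all genes, and 7 were lower and 0 higher in the hub than in control, with a median of -0.46. Of those calls, Cebpd at the LE and Nfkbia in the hub were each lost without 7 of the 9 arrays, with an adjusted p of up to 0.142 and 0.0827. At the LE against the hub, 3 were lower and 1 higher. Zbtb16, a zinc finger repressor, had group means of 6.94 ± 0.16 (SD) at the LE, 8.79 ± 0.10 in the hub and 9.55 ± 0.15 in control, with no overlap between groups. Klf9 ran in the same order, with 8.29 ± 0.07, 9.46 ± 0.10 and 10.51 ± 0.04. Their LE minus hub differences were -1.86 ± 0.11 (SE, limma adjusted p = 1.75e-05) and -1.17 ± 0.07 (adjusted p = 2.28e-05). Both LE means lay inside the range of the background probe sets, so these sizes are not exact. Other probe sets gave smaller differences, with Zbtb16 called on 1 of 2 (-1.86 to -0.13) and Klf9 on 1 of 5 (-1.17 to -0.07), while against control the calls stood on 2 of 2 and 4 of 5. Ddit4, an inhibitor of mTORC1 that is also induced by hypoxia, went the other way, by 0.70 ± 0.10 (adjusted p = 0.00191). The clock gene Per1 was lower at the LE by -0.50 ± 0.08 against the hub (adjusted p = 0.00332) and by -0.91 ± 0.08 against control (adjusted p = 3.40e-05). Errfi1, a feedback inhibitor of EGFR, was lower than in control by -1.41 ± 0.23 in both wound regions (adjusted p = 0.00157 at the LE and 0.00599 in the hub). Dusp1, a MAPK phosphatase, was also lower in both, by -0.62 ± 0.08 (adjusted p = 0.000477 at the LE and 0.00239 in the hub). The relation of the genes of this list to the Mt1 difference was not tested.

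Of 13 measured genes of metal and oxidant stress, 3 were higher and 1 lower at the LE than in the hub, and 6 higher and 1 lower than in control, with a median of 0.43 against control. Hmox1, the heme oxygenase that metals and oxidants induce, read 9.90, 10.04 and 10.18 on the LE arrays, with means of 8.21 ± 0.11 (SD) in the hub and 7.01 ± 0.30 in control. It was higher at the LE by 1.82 ± 0.14 against the hub (SE, limma adjusted p = 7.12e-05) and by 3.03 ± 0.14 against control (adjusted p = 1.01e-06). The hub and control means of Hmox1 lay inside the range of the background probe sets, so these sizes are not exact. Srxn1, a sulfiredoxin, was higher by 1.15 ± 0.13 (adjusted p = 0.000504) against the hub, and Hspa1b, an inducible heat shock protein, was lower by -0.49 ± 0.07 (adjusted p = 0.00247). Ftl1, a ferritin light chain, was higher by 0.44 ± 0.08 (adjusted p = 0.00716). Nqo1 and Gclm, targets of NRF2, were higher than in control at the LE, by 1.05 ± 0.16 (adjusted p = 0.00116) and 1.01 ± 0.11 (adjusted p = 0.000152), and in the hub, by 0.99 ± 0.16 (adjusted p = 0.00607) and 0.81 ± 0.11 (adjusted p = 0.00264).

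**Figure D5:**
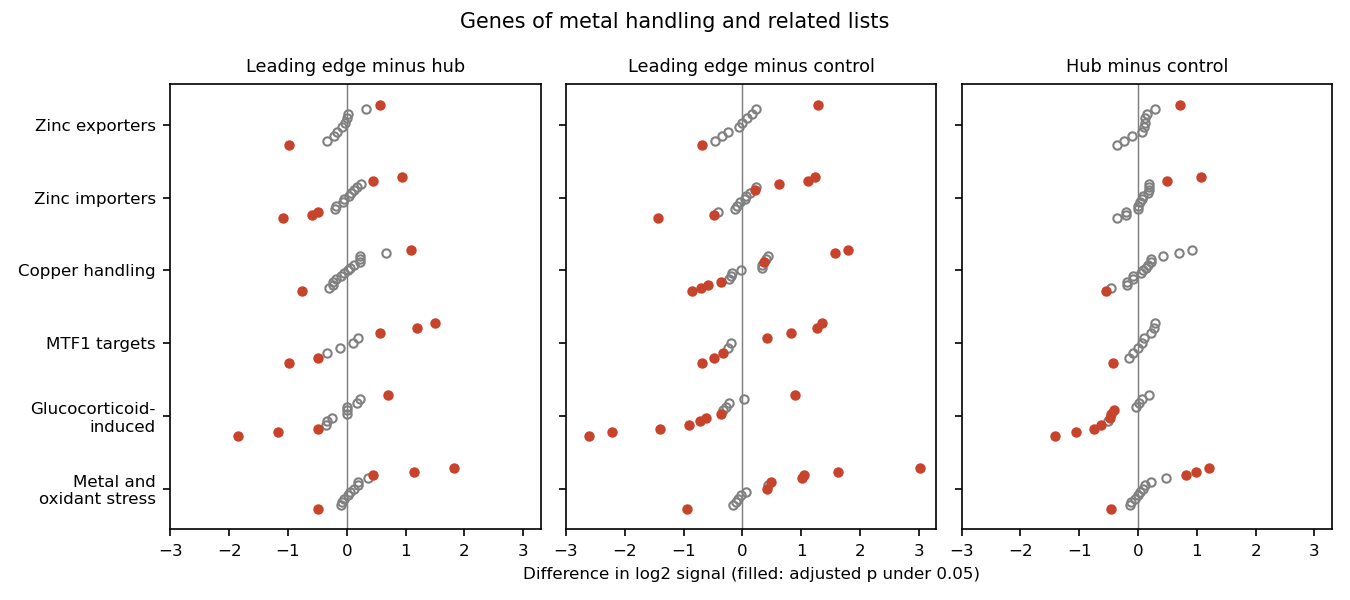
Log2 difference of each measured gene of the metal, MTF1, glucocorticoid and stress lists in the 3 comparisons. Filled points have a limma adjusted p under 0.05 over all genes. Against control at the LE, 7 of 12 glucocorticoid-induced genes are filled below 0, and 6 of 13 stress genes are filled above.

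Markers of other cells were read beside these results. Of 12 myeloid markers, 2 (Cd14 and Cxcr2) were higher at the LE than in the hub, and 3 than in control, where Lyz2 passed too (limma adjusted p = 0.0390, lost without any array other than LE replicate 2, up to 0.117). The list mean was 6.63, 5.90 and 6.48 on the LE arrays, 5.85 to 5.91 on the hub arrays and 5.79 to 5.82 on the control arrays. Of 8 endothelial markers 0 passed in any comparison. Their mean was 7.64, 6.47 and 6.50 on the LE arrays, 6.43 to 6.95 on the hub arrays and 6.09 to 6.35 on the control arrays. All LE and hub arrays thus lay above all control arrays. The median difference of the endothelial markers from control was 0.62 at the LE and 0.53 in the hub, beside 0.02 and 0.03 for all genes. Of 8 fibroblast markers, Dcn alone passed, lower in both wound regions than in control. Of the 5 T cell and Langerhans cell, 5 melanocyte and 3 Schwann cell markers measured, 0 passed. LE replicate 3, the array of lowest Mt4, stood apart in the melanocyte mean, at 6.92 beside 5.76 to 6.09 on the other arrays, and in the T cell and Langerhans cell mean, at 6.56 beside 6.11 to 6.27. Without it the LE minus hub difference of Mt4 was -2.88. The part of such cells in the differences of Mt4 and Mt1 was not tested.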

How the data were processed

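RNA from 300 sorted cells per sample was amplified by whole transcriptome amplification and hybridised to Affymetrix mouse genome PM strip arrays. The authors processed the arrays with RMA, so the deposited values are background-corrected, quantile-normalised log2 signals, 1 column per sample (version not given in the sources used here). RMA gives all arrays 1 distribution, so a change of total RNA cannot be measured, and differences near the bottom or the top of the scale are compressed. No count or depth applies, and the number of arrays limits the precision.

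Of 45141 probe sets, 28898 had 1 gene symbol in the platform annotation, and 28689 of these were found in the RefSeq table. A gene was read from its probe set of highest mean signal, which gave 17097 genes. A group-means model over all 9 arrays was fitted with limma 3.58.1 in R 4.3.3 (lmFit and eBayes, no trend or weights), two-sided, with Benjamini-Hochberg adjustment over all genes, and an adjusted p under 0.05 was called. The second probe sets were fitted and adjusted over all probe sets with 1 symbol. The methods of the study give a fold rule and no test. The script was tested on simulated data.

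Named were all members, their probe sets and 7 measured neighbours of the cluster, Slc30a1, called members of each list with the largest differences, and the 5 most correlated genes of Mt1 and Mt4, up to 4 a list and comparison. Members and lists were chosen with earlier results of these data known. Same-numbered samples did not deviate together (r from -0.18 to 0.08 over 9 pairs), so the numbers were not used as pairs. With 3 samples a group, these correlations cannot exclude a pairing. Mt2 and protein sequences were not analysed here. Promoter sequences are from RefSeq, GRCm38.p6.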

Additional observations from a re-analysis of the deposited data

How the results depend on the processing

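Mt4 kept its direction in all 54 refits, counted over the 3 comparisons, and each difference moved by less than 1 SD between replicates. That SD is wide where the LE is compared, with 0.89 on the LE arrays. Several settings, among them the replicate block, the mean-variance trend and the mean of all probe sets, cannot move a difference of Mt4, which has 1 probe set. Their agreement is therefore no check of its size. Mt1 kept its direction in both comparisons with the LE throughout but was near the threshold. Its LE minus hub difference was -0.26 with the replicate block (adjusted p = 0.0565), and with 1 array left out it ranged from -0.27 to -0.23. Its LE minus control difference was -0.20 with the replicate block (adjusted p = 0.0776), -0.18 with arrays centred on their medians (0.0619), -0.20 with only the 6 arrays compared (0.0954) and -0.22 to -0.18 with 1 array left out. Whether samples of the same number share mice or a preparation is not stated. The block changed no other member's call. With the mean of both probe sets Mt1 was -0.88 against the hub (adjusted p = 0.000159) and -0.83 against control (6.73e-05), and with a mean-variance trend its adjusted p was 0.000105 and 0.000227. With the second probe set in place of the first, an alternative chosen after seeing the data, Mt1 went to -1.51 and -1.46. Mtf1, not called, turned to -0.24 against the hub with its second probe set and to -0.0825 with the mean of all probe sets, and against control it was -0.32 with the second probe set (adjusted p = 0.0206) and -0.103 to 0.0147 with 1 array left out (above 0 only without LE replicate 3). Mt3 against control was 0.0114 with array weights and -0.168 to 0.0769 with 1 array left out (above 0 without LE replicate 1 or control replicate 1). With all probe sets as features 2756 were called for LE against hub and 6278 for LE against control, which counts more features. Hub against control gave 766 genes with only 6 arrays and 699 to 1153 with 1 array left out, the lowest without hub replicate 3. Counts of called list members stayed within 1.5 times the reported count in 295 recounts and did not in 29. The cause of these shifts was not tested. Arrays with 3 samples a group and signals inside the background range (Mt3, the second Mtf1 probe set) limit what a missed threshold shows.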
